A study of Mus musculus with 44 samples.

Results

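GFP-positive cells sorted from mouse calvarial osteoblast cultures were compared between day 17 and day 7 of culture. The comparison rests on 6 RNA samples, 3 a day, each measured on 3 Affymetrix arrays (A, B, and C), which makes 18 of the 44 arrays and 6 of the 18 RNA samples of the study. The day 17 samples (Exp100, Exp105 and Exp106) carried the pOBCol2.3GFP transgene, and their cultures had received ascorbic acid and beta-glycerophosphate from day 7 onwards. The day 7 samples (Exp101, Exp103 and Exp99) carried pOBCol3.6GFP and had received no additions. Both kinds of culture began from calvariae of newborn mice labelled 7 day, were kept in DMEM with 10% fetal calf serum, and had their medium exchanged on days 2 and 5. Age in culture, transgene and additions therefore changed together, and their effects on any gene below cannot be told apart. The labels give each sample an experiment number but do not state separate cultures or animals, and the replicate spread behind the p-values may therefore be technical. The 12 sorted samples, which include the GFP-negative cells of the same experiments, were fitted together.

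Both transgenes use fragments of a type I collagen promoter. The longer fragment is known to be active from early osteoblast precursors on and the shorter in mature osteoblasts. Sorting for GFP thus selects cells by promoter activity, and the fragment selected on differed between the days. Osteoblasts are the cells that build bone: they secrete a matrix of type I collagen and acidic glycoproteins, release phosphate with a membrane-bound alkaline phosphatase and let mineral form in the matrix. Some become buried as osteocytes, which make factors that control phosphate and bone formation. Ascorbic acid is needed for collagen hydroxylation, and beta-glycerophosphate is a source of phosphate for mineral in culture.

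The osteoblast label was checked against marker genes. Col1a1, Col1a2 and Sparc, which encode the chains of type I collagen and osteonectin, lay at or above percentile 98.9 of array A in all 6 samples. Ibsp and Alpl, markers of later osteoblasts, lay at percentiles 94.1 to 99.9 at day 17 and 22 to 77 at day 7. The endothelial markers Cdh5, Tek and Pecam1 were too dim to be tested, and Kdr lay at percentiles 20.4 to 52 of array C. Markers of other cell types were not all dim. The macrophage gene Lyz2 lay at percentiles 91.5 to 98.3 of array A at day 17 and 45.9 to 58.1 at day 7. Ctss, also of macrophages, lay at 82.5 to 98.3 at day 17 and 32.2 to 38.2 at day 7. The smooth muscle gene Acta2 lay at 94.9 to 95.9 at day 17 and 98.8 to 99.1 at day 7. No marker was listed at 0. Spp1, Bglap, Runx2, Sp7, Mepe and Sost were not analysed here. Exp106 stood apart from the other day 17 samples. On array A its log2 levels correlated with Exp100 and Exp105 at 0.725 and 0.728, against 0.960 between those 2, while the day 7 samples correlated at 0.939 to 0.967 with each other. List counts that moved by over 1.5 times with Exp106 out of both fractions are given both ways.

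A broad set of genes differed between the days, and more were lower than higher at day 17. Of 22099 probe sets tested with limma at a Benjamini-Hochberg adjusted p under 0.05, 1071 (4.85%) were called, 367 higher and 704 lower at day 17. With 1 probe set per gene, 11680 genes were tested, of which 244 (2.09%) were called higher and 439 (3.76%) lower. The counts of lists and families below are to be read beside these 2 shares. The median change over all genes was -0.07 on the log2 scale. Among called genes the median fold was 3.75 for those higher and 3.17 for those lower, and 54 rose and 40 fell by 8-fold or more. Every called probe set had day 17 and day 7 samples that did not overlap, as had 26.0% of all probe sets tested. A lack of overlap given below for a called gene therefore adds nothing to its call. All values below are normalised intensities, and changes are log2 differences of intensity plus 32, which understates the change of dim genes; levels of different genes were not compared. The count depended on which sample was left out. It was 2347 without Exp106 in both fractions (11.1% of 21115 tested), 950 higher and 1397 lower. List counts without Exp106 below are to be read beside that larger share. The count was 689 without GFP-positive Exp100, 668 without Exp105, 593 without Exp101, 546 without Exp103 and 457 without Exp99.

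**Figure D1:**
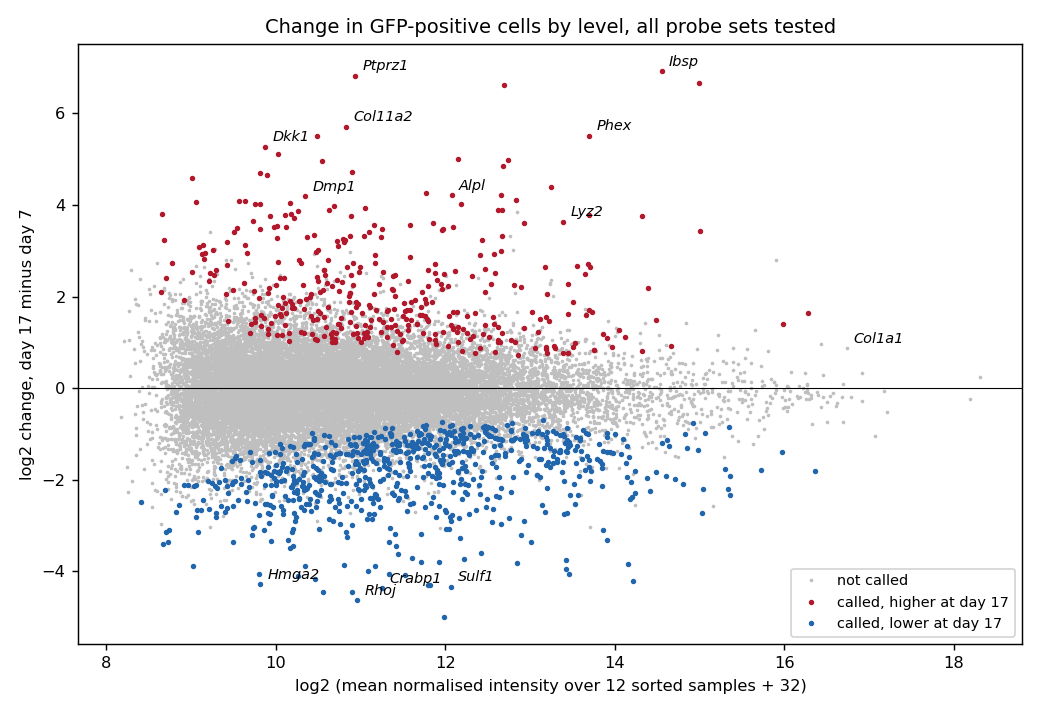
Change of every tested probe set in GFP-positive cells (y axis, log2 day 17 minus day 7) against its mean level over the 12 sorted samples (x axis, log2 scale). Called probe sets are coloured, and Ibsp, Ptprz1, Col11a2 and Phex lie highest among the labelled genes while Rhoj lies lowest.

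Bone matrix genes had the highest median change of the gene lists. Of 16 bone matrix genes tested, 8 rose and 1 fell, with a median change of 1.78. Ibsp, which encodes bone sialoprotein, an acidic matrix protein able to nucleate mineral, had 57657, 75113 and 100230 in day 17 samples, against 835, 1903 and 114 in day 7 samples. All day 17 samples were far above all day 7 samples, and the day 7 samples differed widely among themselves. The change was 6.92 ± 0.90 (SE, n = 3 a day, limma adjusted p = 0.00129), or 121-fold. Alpl, the tissue-nonspecific alkaline phosphatase that frees phosphate for mineral, had 12000, 10856 and 6589 at day 17, against 545, 601 and 342 at day 7. It rose 18.5-fold (4.21 ± 0.38, limma adjusted p = 0.000201) with no overlap. Cgref1 rose by 4.86 ± 0.80, Kazald1 by 3.61 ± 0.58, Omd (osteomodulin, a keratan sulfate proteoglycan of bone) by 3.56 ± 0.77 and Tnn (tenascin W) by 2.56 ± 0.58. The call of Tnn was lost without Exp100, Exp105, Exp103 or Exp99, and that of Omd without any of the same 4 samples.

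Dmp1 encodes a phosphorylated matrix protein made by late osteoblasts and osteocytes. It had 3745, 8719 and 626 at day 17, against 139, 224 and 49.9 at day 7. The groups did not overlap, but Exp106 was far below the other day 17 samples. The change was 4.19 ± 0.87 (limma adjusted p = 0.0178) and 5.23 without Exp106; the call was lost without Exp100, Exp105, Exp101 or Exp99. Phex, a membrane endopeptidase whose loss causes phosphate wasting, had 37770, 58176 and 49973 at day 17, against 1677, 461 and 1349 at day 7. Its rise of 45.6-fold (5.51 ± 0.45, limma adjusted p = 0.000102) was seen in all samples with no overlap.

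The type I collagen genes were not called. Col1a1 had 132820, 132820 and 149230 at day 17, against 50082, 94984 and 90715 at day 7, a difference of 0.87 ± 0.35 that was not called (limma adjusted p = 0.191). Col1a2 had 116090, 120550 and 116090 at day 17, against 45519, 66885 and 72404 at day 7, a difference of 0.96 ± 0.27 (limma adjusted p = 0.0708). Neither gene's groups overlapped. Both genes lay at percentile 100 of the array in all day 17 samples, near the upper limit that quantile normalisation sets (149230 on array A). The effect of that limit on their change was not tested, and the change was not compared with that of the genes above. On the deposited scale the differences were 1.08 and 1.18. Sparc (0.88 ± 0.25, adjusted p = 0.0724) and Bgn, the proteoglycan biglycan (-0.35 ± 0.28, adjusted p = 0.534), were not called in the limma fit either. The 1 bone matrix gene that fell was Mgp, an inhibitor of calcification, with 3464, 2624 and 1974 at day 17, against 6544, 8030 and 9796 at day 7 (-1.60 ± 0.26, limma adjusted p = 0.00514).

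**Figure D2:**
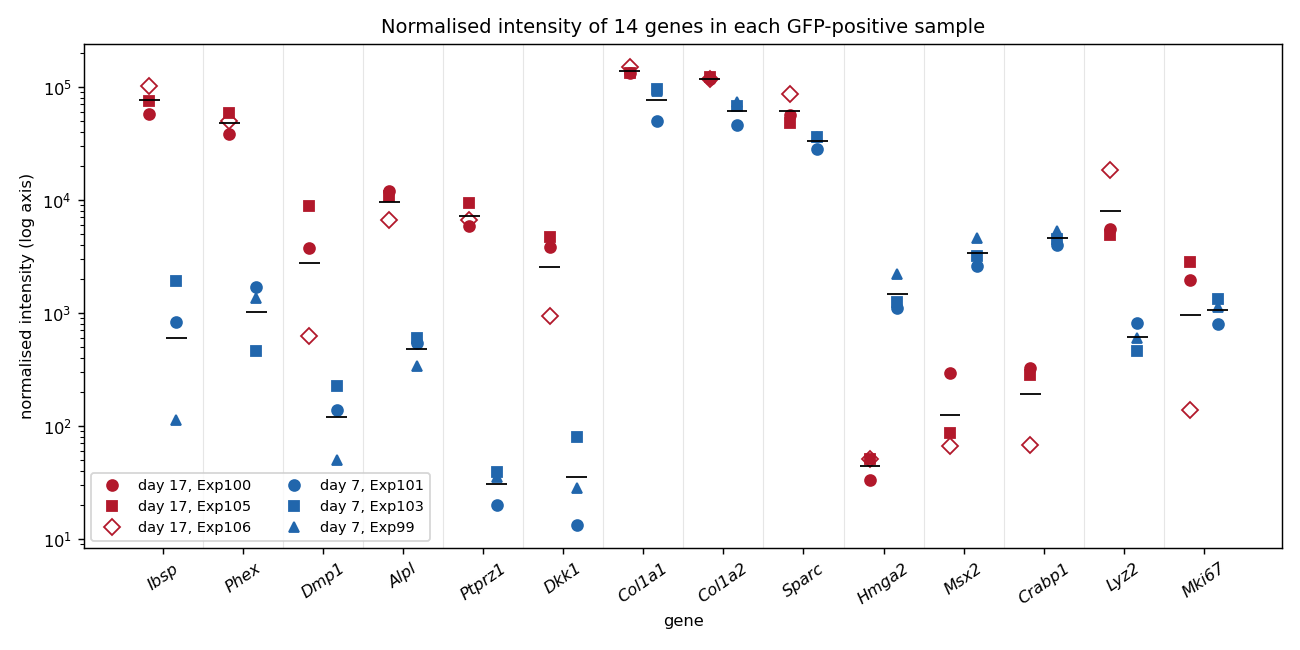
Normalised intensity (log y axis) of bone, collagen, precursor, macrophage and cell cycle genes in each GFP-positive sample, day 17 on the left of each pair and day 7 on the right; bars are means on the log2 scale. Ibsp, Phex, Alpl and Ptprz1 do not overlap between days, Hmga2, Msx2 and Crabp1 are lower in all day 17 samples, and Exp106 (open diamonds) is the lowest day 17 sample for Dmp1, Dkk1 and Mki67 and the highest for Lyz2.

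The promoters of Ibsp, Dmp1 and Phex are shown because these genes rose together. The sequences are RefSeq's on GRCm38.p6, the 150 bases just upstream of each annotated start, read 5′ to 3′ on the gene's strand; Dmp1 has 2 annotated starts. They lie at chr5:104299137-104299286 (Ibsp, + strand), chr5:104197425-104197574 and chr5:104202467-104202616 (Dmp1, + strand), and chrX:157415287-157415436 (Phex, - strand). Capitals mark matches to the motifs searched on both strands. These were ACCACA, the core of Runx sites, TTTGAA, the cell cycle genes homology region (CHR), and CCAAT, the box bound by NF-Y. The others were the E2F motifs TTTCGCGC and TTTGGCGC, the cyclic AMP response element TGACGTCA, and the E-box CACGTG.
Ibsp: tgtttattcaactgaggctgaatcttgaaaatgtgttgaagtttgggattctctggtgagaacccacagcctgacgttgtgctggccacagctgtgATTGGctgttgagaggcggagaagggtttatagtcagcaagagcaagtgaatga
Dmp1, first start: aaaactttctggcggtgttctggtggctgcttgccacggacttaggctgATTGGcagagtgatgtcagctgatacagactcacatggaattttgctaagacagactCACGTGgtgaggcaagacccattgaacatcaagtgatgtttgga
Dmp1, second start: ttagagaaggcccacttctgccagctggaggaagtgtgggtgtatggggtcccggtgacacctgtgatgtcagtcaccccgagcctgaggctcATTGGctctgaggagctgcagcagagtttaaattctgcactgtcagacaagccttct
Phex: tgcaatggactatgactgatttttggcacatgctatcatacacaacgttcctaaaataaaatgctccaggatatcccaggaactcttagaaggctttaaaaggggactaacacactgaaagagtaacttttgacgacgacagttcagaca

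Ibsp and both Dmp1 windows hold CCAAT on the opposite strand, the first Dmp1 window also holds CACGTG, and the Phex window holds none of the 7. In the table's full windows of 300 bases, 37.4% of all 32851 promoters hold CCAAT and 7.15% hold CACGTG. Of the called genes with an entry, 40.9% of the 186 higher and 44.6% of the 341 lower genes hold CCAAT in at least 1 window, beside 42.3% of all 9349 tested genes with an entry. ACCACA is held by 15.1% of the higher genes and 14.8% of all tested genes with an entry.

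Genes linked to osteocytes and to phosphate handling moved in both directions. Of 18 osteocyte-associated genes tested, 6 rose and 2 fell (median change 1.01). Ptprz1, a receptor-type tyrosine phosphatase, had 5891, 9286 and 6578 at day 17, against 19.9, 39.4 and 35.2 at day 7. Day 7 values lay near the bottom of the array, and the rise of 114-fold (6.83 ± 0.56, limma adjusted p = 0.000102) is therefore only approximate, as are those of Dkk1, Car3, Col11a2 and Col13a1 below. Cd109 rose by 3.48 ± 0.82 and Ackr3, a scavenging chemokine receptor, by 2.59 ± 0.47. The members that fell were Cnn3 (calponin 3, by 1.64) and Kcnk2, a mechanosensitive potassium channel (by 1.43). Of 13 genes of phosphate handling and mineralisation control, 4 rose and 3 fell. Besides Phex and Alpl, Car3 (carbonic anhydrase 3) had 1588, 6109 and 892 at day 17, against 41.0, 48.0 and 56.9 at day 7; its call was lost without Exp105. Slc8a3, a sodium-calcium exchanger, rose by 2.26 ± 0.52. Both type III phosphate transporters fell. Slc20a2 had 719, 686 and 774 at day 17, against 3366, 3064 and 4671 at day 7, a fall of 2.28 ± 0.45 that lost its call without Exp99. Slc20a1 fell by 1.90 ± 0.41.

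Among 24 collagen genes, 5 rose and 2 fell (median change 0.45). Col11a2, a chain of the fibril-nucleating type XI collagen, had 8786, 5471 and 5307 at day 17, against 75.7, 103 and 92.9 at day 7, a rise of 52.2-fold (5.71 ± 0.58, limma adjusted p = 0.000358). Col13a1, a transmembrane collagen, had 2804, 4233 and 3173 at day 17, against 21.2, 115 and 87.1 at day 7 (5.11 ± 0.56). The groups were far apart for both. Col27a1 rose by 1.91 ± 0.46. Col9a1 (2.00 ± 0.45) and Col11a1 (1.32 ± 0.31) rose too, but Col9a1 lost its call without any 1 of the 6 samples and Col11a1 without Exp100, Exp105, Exp101 or Exp99. The type VIII chains fell: Col8a1 had 2363, 1791 and 5248 at day 17, against 11682, 15644 and 15695 at day 7 (-2.32 ± 0.39), and Col8a2 fell by 2.30 ± 0.27. Col11a2, Col9a1 and Col11a1 were also the 3 that rose among 14 chondrocyte genes, of which none fell. Sox9, the master factor of cartilage, had 1499, 1340 and 2748 at day 17, against 1891, 2122 and 2687 at day 7, and the groups overlapped (limma adjusted p = 0.671). Acan and Col2a1, the defining cartilage matrix genes, were too dim to be tested.

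Of 21 collagen processing enzymes, 3 rose and none fell (median change 0.46). P4ha2, a catalytic subunit of prolyl 4-hydroxylase, had 12419, 12419 and 12074 at day 17, against 1610, 2558 and 3818 at day 7 (2.28 ± 0.36, limma adjusted p = 0.00359). P4ha1, the other main catalytic subunit, had 41553, 32211 and 10960 at day 17, against 3686, 5504 and 6405 at day 7 (2.27 ± 0.47), and its call was lost without Exp100, Exp105, Exp101 or Exp103. Without Exp106, 7 of the 21 rose. Bmp1, the procollagen C-proteinase, rose by 1.11 ± 0.27 and lost its call under 9 of 19 alternatives.

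Several genes of the endoplasmic reticulum and secretory pathway rose by small amounts. Of 61 tested, 6 rose, beside 2.09% of all genes, and none fell; 51 had a change above 0, and the median was 0.56, beside -0.07 for all genes. Creb3l1, a membrane-bound factor that raises secretory and collagen genes in bone, had 17650, 14112 and 14907 at day 17, against 4029, 6143 and 4577 at day 7 (1.67 ± 0.26, limma adjusted p = 0.00309). Copb2, a subunit of the COPI coat, rose by 1.60 ± 0.28, Ssr2, of the translocon-associated complex, by 1.39 ± 0.24, and Sec61b, of the translocon itself, by 1.13 ± 0.25. The list was lowest in Exp106, where its median deviation from the day 7 mean was 0.17, against 0.68 in Exp100 and 0.65 in Exp105. Without Exp106, 26 members rose and 1 fell, in a fit where 950 of all 21115 probe sets rose and 1397 fell. Of 33 glycolysis and hypoxia genes, 5 rose and 1 fell (median 0.34), and 9 rose without Exp106. They included Ankrd37, a target of hypoxia-inducible factor, with 3338, 2618 and 2495 at day 17, against 258, 483 and 412 at day 7 (2.80 ± 0.36), the lactate exporter Slc16a3 (1.66 ± 0.37) and the oxygen sensor Egln3 (1.51 ± 0.27). The member that fell was Hk1 (by 0.84).

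Of 37 Wnt pathway genes 3 rose and none fell, and the 3 encode secreted antagonists. Other secreted antagonists of the list were not called and went both ways: Sfrp4 had 1.92, Sfrp2 -1.36, Sfrp1 -1.26 and Dkk3 -1.01. Dkk1, which blocks the Wnt co-receptors, had 3836, 4651 and 928 at day 17, against 13.2, 79.1 and 28.1 at day 7 (5.27 ± 0.74, limma adjusted p = 0.00201). Wif1, which binds Wnt ligands, had 4677, 3015 and 1808 at day 17, against 310, 308 and 323 at day 7 (3.11 ± 0.42, limma adjusted p = 0.00162). Frzb, a secreted frizzled-related protein, had 2970, 3518 and 2082 at day 17, against 495, 65.2 and 144 at day 7 (3.76 ± 0.75). For all 3 the days did not overlap, and Exp106 was the lowest day 17 sample. Frzb lost its call without Exp100, Exp105, Exp103 or Exp99.

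In the BMP, activin and TGF-beta pathway, 4 of 41 genes rose and 5 fell (median -0.32). The ligand Bmp2 had 7119, 10425 and 6700 at day 17, against 1671, 1078 and 1210 at day 7 (2.58 ± 0.31, limma adjusted p = 0.000916). Bambi, a decoy receptor of the pathway, had 28792, 37731 and 4823 at day 17, against 1421, 1207 and 1566 at day 7 (3.61 ± 0.73); it lost its call when any GFP-positive sample other than Exp106 was left out. The receptor genes went both ways: Acvr2b rose by 1.62 ± 0.34, and Acvr2a fell by 2.14 ± 0.30 and Tgfbr2 by 1.80 ± 0.18. Inhbb, the activin beta B subunit, had 39.4, 23.8 and 13.6 at day 17, against 399, 818 and 1526 at day 7 (-3.87 ± 0.75). Of 34 growth factors and receptors, 3 rose and 6 fell, and 10 fell without Exp106. Pth1r, the parathyroid hormone receptor of osteoblasts, had 11751, 11816 and 5537 at day 17, against 586, 773 and 1083 at day 7 (3.48 ± 0.47, limma adjusted p = 0.00165). Lifr rose by 2.73 ± 0.32 and Pdgfa by 1.59 ± 0.22. The growth factor Igf2 had 9008, 8049 and 15018 at day 17, against 47717, 55506 and 53809 at day 7 (-2.34 ± 0.24, limma adjusted p = 0.000358), and Igfbp2, which binds it, fell by 2.19 ± 0.28. The receptors Egfr (by 2.11) and Pdgfrb (by 2.08) fell too.

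Of 29 osteogenic transcription factors, 3 rose and 3 fell, and the median change was 0.00. Mef2c, an activator of the osteocyte programme, had 7307, 7338 and 2494 at day 17, against 486, 482 and 402 at day 7 (3.40 ± 0.49, limma adjusted p = 0.00242). Dlx3, a homeobox factor of late osteoblasts, had 3363, 2788 and 1497 at day 17, against 166, 325 and 118 at day 7 (3.48 ± 0.68); its call was lost without Exp100, Exp105 or Exp99. Msx2, a homeobox factor of skull precursors, had 294, 87.0 and 65.9 at day 17, against 2603, 3150 and 4594 at day 7 (-4.44 ± 0.77, limma adjusted p = 0.00665). Each of these 3 was separated between days without overlap. Prrx2, a mesenchymal homeobox factor, fell by 1.59 ± 0.34 and Zfp521, which restrains osteoblast maturation, by 2.60 ± 0.56. Dlx5 (0.87 ± 0.32, adjusted p = 0.151) and Twist1 (-0.54 ± 0.25, adjusted p = 0.26) were not called by limma.

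**Figure D3:**
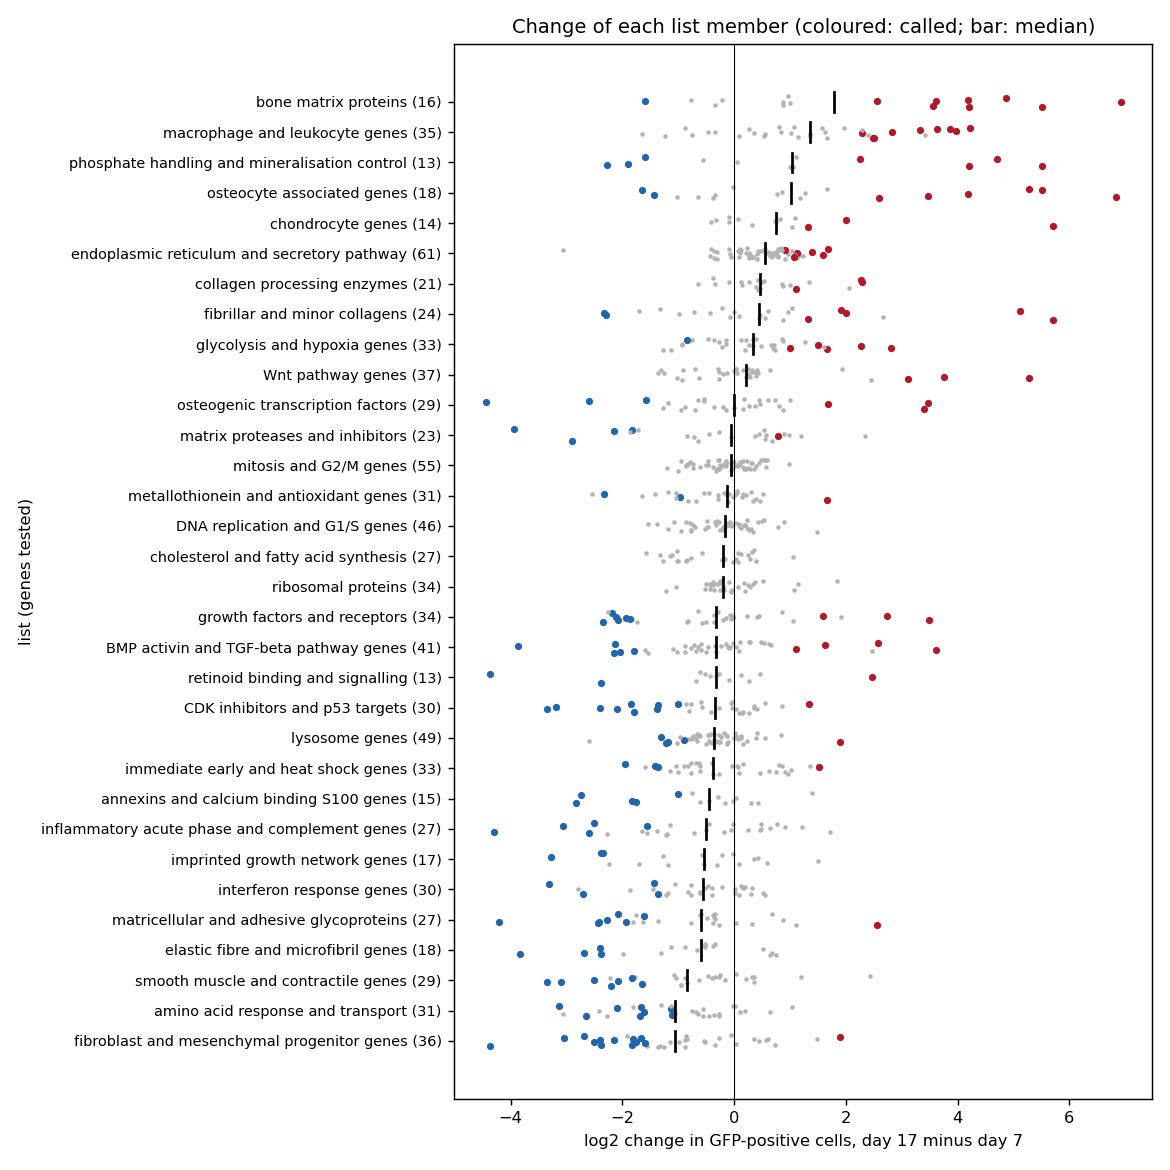
Change of each tested member of the gene lists in GFP-positive cells (x axis, log2 day 17 minus day 7); larger coloured points were called and black bars are medians. Bone matrix genes have a median of 1.78 and fibroblast and progenitor genes of -1.07, and the mitosis and replication lists hold no coloured point.

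Fibroblast and mesenchymal progenitor genes had the lowest median of all lists (-1.07), almost the same as the amino acid response list (-1.06). Over the 19 alternatives these medians ran from -1.40 to -0.98 and from -1.12 to -0.81, so their order is not firm. Of 36 fibroblast and progenitor genes tested, 12 fell and 1 rose, and 4 rose without Exp106. Crabp1, a retinoic acid binding protein of mesenchyme, had 322, 283 and 67.3 at day 17, against 4012, 4523 and 5278 at day 7 (-4.37 ± 0.47, limma adjusted p = 0.000499). The homeobox factor Meox2 had 109, 161 and 75.5 at day 17, against 976, 1174 and 1332 at day 7 (-3.05 ± 0.36, limma adjusted p = 0.000828). Neither overlapped between days. Vcam1 fell by 2.50 ± 0.47, Cd34 by 2.14 and Thy1 by 1.67. The gene that rose was Fap, a surface protease of activated fibroblasts, with 2881, 3056 and 3465 at day 17, against 657, 870 and 963 at day 7 (1.89 ± 0.30). The proteoglycan Dcn (decorin), also on this list, was not called, with 48170, 37485 and 71772 at day 17, against 43832, 37015 and 37817 at day 7 (0.36 ± 0.23, limma adjusted p = 0.427). In a sorted population, fewer cells of a type and less RNA of a gene per cell cannot be told apart.

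Several contractile and smooth muscle genes fell: 7 of 29 fell and none rose (median -0.84). Tagln, the actin-binding protein transgelin, had 3201, 2418 and 2242 at day 17, against 25083, 22243 and 20199 at day 7 (-3.10 ± 0.29, limma adjusted p = 0.000239). Acta2, smooth muscle actin, had 7401, 9088 and 8102 at day 17, against 24785, 33570 and 30021 at day 7 (-1.84 ± 0.21, limma adjusted p = 0.00076). Both genes differed in all samples by much more than the spread within a day. Csrp2 (by 3.35), Cnn1 (by 2.51), Cald1 (by 2.21), Pdgfrb and Cnn3 also fell. Myh11, the defining myosin of smooth muscle, had 1990, 2535 and 2918 at day 17, against 2439, 1940 and 2024 at day 7, and overlapped.

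Elastic fibre genes fell in 4 of 18 cases, with no rise (median -0.59). Fbln5, which anchors elastic fibres to cells, had 1967, 1820 and 1997 at day 17, against 15055, 11642 and 11458 at day 7, with the smallest adjusted p of the named genes (-2.69 ± 0.19, limma adjusted p = 5.66e-05). Fbln2 had 964, 1882 and 3225 at day 17, against 11589, 31134 and 49030 at day 7 (-3.83 ± 0.66). Mfap5 fell by 2.40 and Efemp1 by 2.39. Of 27 matricellular and adhesive glycoproteins, 7 fell and 1 (Tnn) rose. Edil3, an integrin ligand, had 1622, 2293 and 997 at day 17, against 29166, 24316 and 35200 at day 7 (-4.21 ± 0.33, limma adjusted p = 8.67e-05). Thbs2 (by 2.41), Tgfbi (by 2.43), Lamb1 (by 2.07), Ccn2 (by 1.94), Ccn3 (by 2.27) and Ccn5 (by 1.61) fell. Among 23 matrix proteases and inhibitors 4 fell and 1 rose, beside 3.76% and 2.09% of all genes (2 of 22 rose without Exp106). Adamts5, an aggrecanase, had 1035, 528 and 1572 at day 17, against 17978, 7850 and 24316 at day 7 (-3.94 ± 0.53). Timp3 fell by 2.90 ± 0.32, and the collagenolytic cathepsin Ctsk rose by 0.78 ± 0.19, a call lost under 9 of 19 alternatives.

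Several of the largest changes were in genes outside these groups. Rhoj, a small GTPase, had 158, 132 and 52.2 at day 17, against 3610, 2848 and 3739 at day 7 (-4.63 ± 0.34, limma adjusted p = 6.66e-05), or 24.7-fold lower. Nrk, a protein kinase, had 90.1, 68.5 and 99.5 at day 17, against 3481, 3931 and 1155 at day 7 (-4.44 ± 0.55). Hmga2, a chromatin protein of undifferentiated and embryonic cells, had 33.4, 50.5 and 50.5 at day 17, against 1110, 1257 and 2196 at day 7 (-4.28 ± 0.45, limma adjusted p = 0.000435). No day 17 sample of these 3 genes reached the lowest day 7 sample. Sulf1, an extracellular heparan sulfate endosulfatase, fell by 4.33 ± 0.55, Sema3c, a secreted semaphorin, by 4.05 ± 0.60, Alcam by 3.89 and Akap12 by 3.49. Uap1l1 had 375, 565 and 7870 at day 17, against 23392, 18788 and 19989 at day 7. Exp106 was far above the other day 17 samples, and the change was -4.06, or -5.39 without Exp106. Large rises were those of Slc36a2, a proton-coupled amino acid transporter, with 6820, 6070 and 1357 at day 17, against 39.9, 106 and 31.5 at day 7, near the bottom of the array (about 45.2-fold), the adhesion molecule Cadm1 (4.38 ± 0.46), the potassium channel Kcnk1 (4.26 ± 0.43), the matrix protein Vit (4.12 ± 0.57) and the collagen-binding integrin subunit Itga10 (4.03 ± 0.50).

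Some inflammatory and interferon genes fell. Of 27 inflammatory, acute phase and complement genes, 5 fell and none rose (median -0.51). Without Exp106, 8 of 23 fell and the median was -0.87, and it was -1.37 over the 13 members left by a filter at the 75th percentile; the list's median deviation was -0.39 in Exp106, against -1.14 in Exp100 and -0.67 in Exp105. The chemokine Ccl7 had 177, 96.3 and 1301 at day 17, against 8662, 4901 and 6283 at day 7 (-4.30 ± 0.76). Ccl2 had 391, 237 and 1950 at day 17, against 4928, 3876 and 6840 at day 7 (-3.07 ± 0.65). Both chemokines, which recruit monocytes, were highest among day 17 samples in Exp106 and still below every day 7 sample. Il33 fell by 2.60 ± 0.40. Of 30 interferon response genes 4 fell and none rose, beside 3.76% and 2.09% of all genes, and 10 of 28 fell without Exp106. Gbp2, an interferon-induced GTPase, had 147, 157 and 155 at day 17, against 2077, 1686 and 1715 at day 7 (-3.32 ± 0.33, limma adjusted p = 0.000311), and Iigp1 (by 2.71), Stat2 (by 1.43) and Psmb8 (by 1.36) fell. The calls of Iigp1, Stat2 and Psmb8 were each lost when Exp101 was left out.

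Genes induced by amino acid shortage had a median change of -1.06, and 8 of 31 fell and none rose. Without Exp106, 17 fell and 1 rose, in a fit that called 11.1% of all probe sets, against 4.85% with it. Atf5 had 1042, 730 and 3091 at day 17, against 7322, 9554 and 8930 at day 7 (-2.65 ± 0.56). Cth, which makes cysteine, fell by 3.13 ± 0.65, the stress sensor Sesn2 by 2.10 ± 0.36 and the transaminase Gpt2 by 1.68 ± 0.27. In Exp106 the list's median deviation from the day 7 mean was -0.37, against -1.26 in Exp100 and -1.25 in Exp105. Trib3, another member, had 270, 547 and 6397 at day 17, against 4951, 5572 and 4543 at day 7, with Exp106 above every day 7 sample and the other day 17 samples below them all. Of 30 CDK inhibitors and p53 targets 9 fell and 1 rose (median -0.34), and 3 rose without Exp106. Gadd45a, a growth arrest gene, had 250, 396 and 1545 at day 17, against 5352, 5079 and 5198 at day 7 (-3.19 ± 0.56). Perp fell by 3.36 and Plk2 by 2.41, Tob1 rose by 1.33 ± 0.29, and Cdkn1a (p21) had 5654, 4455 and 5152 at day 17, against 3967, 2842 and 4934 at day 7, which overlapped. Meg3, an imprinted noncoding RNA, had 824, 617 and 295 at day 17, against 4913, 6014 and 5527 at day 7 (-3.28 ± 0.35, limma adjusted p = 0.000464); with Ndn (by 2.38) and Igf2 it made up the 3 of 17 imprinted genes that fell, and 5 fell without Exp106. Of 15 annexin and S100 genes 5 fell and none rose (1 rose without Exp106), led by Anxa3 (by 2.84), Anxa8 (by 2.75) and S100a4 (by 1.83).

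Cell cycle genes were not called in either direction, and Exp106 differed from the other day 17 samples. Of 46 replication genes and 55 mitosis genes limma called 0. At an unadjusted p under 0.05, 3 replication genes were higher and 2 lower, and 1 mitosis gene was higher. Of all 11680 genes, 944 were higher and 1494 lower at that unadjusted threshold. Mki67, a marker of cycling cells, had 1945, 2835 and 138 at day 17, against 794, 1324 and 1123 at day 7. Exp100 and Exp105 lay above all day 7 samples and Exp106 below them. The difference was -0.14 ± 1.09 (adjusted p = 0.959) over all samples, and 1.13 (limma adjusted p = 0.0382) without Exp106. Top2a had 1433, 1729 and 49.5 at day 17, against 895, 1046 and 925 at day 7 (-0.73, or 0.71 without Exp106, limma adjusted p = 0.0932). Without Exp106, 6 mitosis genes rose and the list's median was 0.35. Pcna (0.20) and Ccnd1 (-0.19) overlapped between days. Limma also called 0 of 34 ribosomal protein genes (unadjusted, 1 higher and 4 lower) and 0 of 27 cholesterol and fatty acid synthesis genes (unadjusted, 1 higher and 6 lower). With the experiment as a random block, limma called 0 in each of these 4 lists. Without Exp106, 2 ribosomal protein genes fell and 1 cholesterol gene rose. In Exp106 the cholesterol list's median lay 1.69 below the day 7 mean, against deviations of 0.23 and -0.04 in Exp100 and Exp105.

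**Figure D4:**
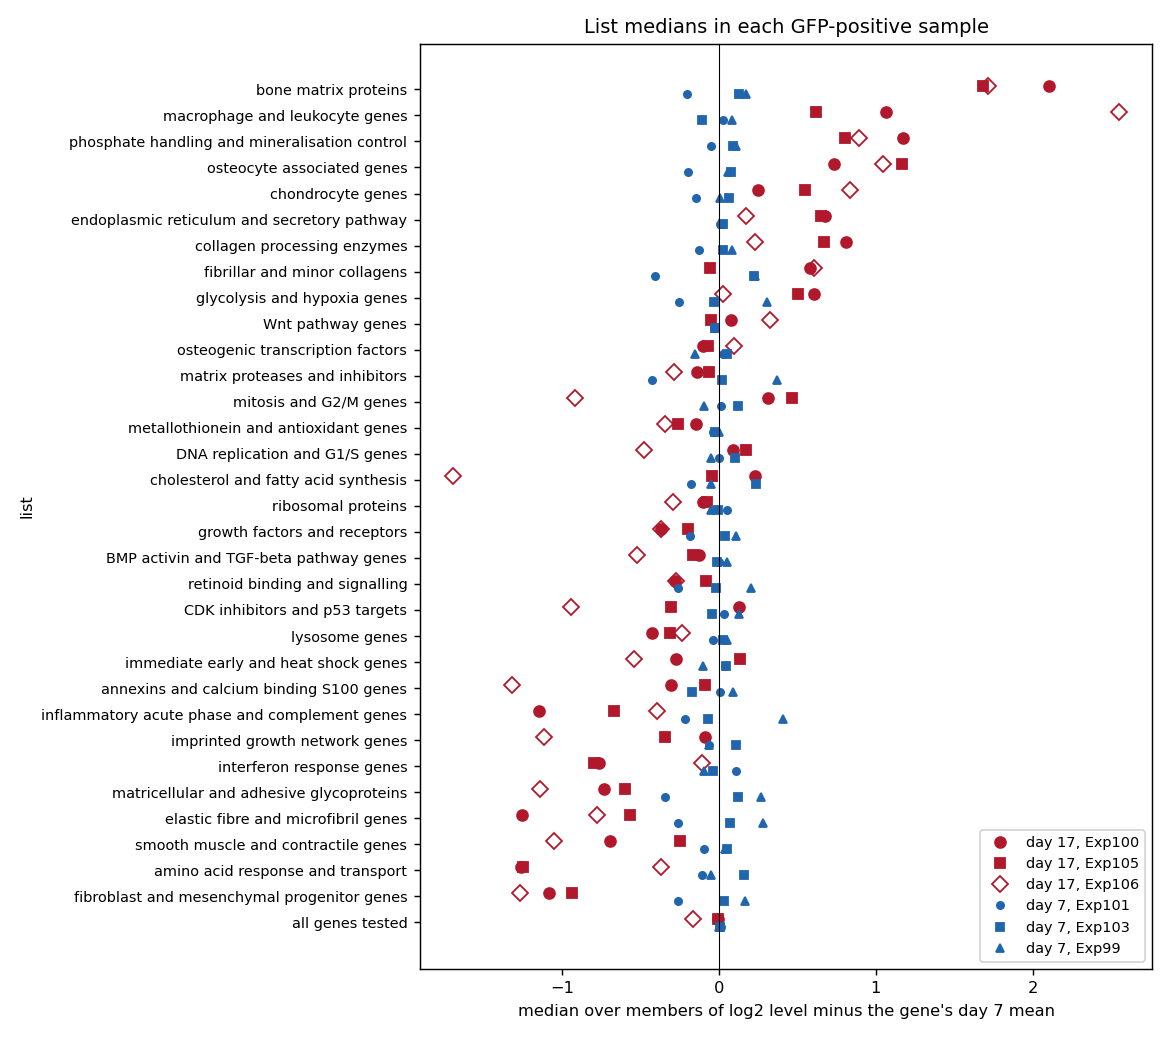
Median over each list's members of the log2 level minus the gene's day 7 mean (x axis) in each GFP-positive sample; open diamonds are Exp106. Bone matrix genes lie at 1.69 to 2.10 in all day 17 samples, while mitosis, cholesterol and macrophage genes set Exp106 apart from Exp100 and Exp105.

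Some macrophage and leukocyte genes rose in the GFP-positive cells. Of 35 tested, 9 rose and none fell (median 1.35), and 9 of 30 rose and 1 fell without Exp106 (median 0.65). Lyz2, lysozyme of macrophages, had 5558, 4894 and 18284 at day 17, against 813, 463 and 595 at day 7 (3.64 ± 0.52, limma adjusted p = 0.00215). Ctss, cathepsin S of antigen-presenting cells, had 2560, 3388 and 18583 at day 17, against 308, 219 and 266 at day 7 (4.22 ± 0.61). All day 17 samples lay above day 7 for both, with Exp106 the highest. C1qb (3.97), Mrc1 (3.86), Tyrobp (3.32) and Cd68 (2.28) rose as well. Ptprc, which defines leukocytes, had 23.3, 117 and 309 at day 17, against 10.7, 11.5 and 19.1 at day 7, and was too dim to be tested. The list's summed level was 40352 to 162430 at day 17, against 38846 to 47633 at day 7, with the highest value in Exp106 and overlap between the days. The day 7 sums came in large part from Hmox1 and Gpnmb, neither of them called. Hmox1 had 2385, 3873 and 15373 at day 17, against 14944, 14864 and 19955 at day 7. Gpnmb had 3575, 6536 and 16699 at day 17, against 16034, 5904 and 8525 at day 7. The overlap of the sums therefore does not describe the other members. The count of rises was 5 on the deposited scale, 7 with the experiment as a random block and 2 of 18 in a fit of the 6 GFP-positive samples alone. In the GFP-negative cells the same list had a median change of 1.47. Whether macrophage RNA contributed to other differences was not tested.

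Markers of other cell types were mostly not called or were too dim to be tested. Of 11 osteoclast genes 1 rose, Ctsk, and 1 fell, Ostm1 (by 1.15), beside 2.09% and 3.76% of all genes. The list's median was -0.13, and without Exp106 2 of 10 fell. The osteoclast phosphatase Acp5 had 771, 993 and 425 at day 17, against 834, 582 and 891 at day 7, and Calcr was too dim to be tested. No skeletal muscle gene (19 tested) or endothelial gene (10 tested) was called by limma. At an unadjusted p under 0.05, 1 muscle gene was higher and 1 lower, and 0 endothelial genes passed. Over all 11680 genes, 944 were higher and 1494 lower at that threshold. With the experiment as a random block limma called 0 in both lists. Without Exp106, 1 muscle gene rose. Among lymphocyte genes Ighm rose by 1.65 ± 0.38, a call lost under 8 of 19 alternatives. Of 19 adipocyte genes tested, 2 rose and none fell, beside 2.09% and 3.76% of all genes. That list's median was -0.50 and its highest change 4.70. Over the 19 alternatives 0 to 2 adipocyte genes rose and 0 to 3 fell. Pparg of adipocytes was too dim to be tested.

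The change in GFP-positive cells was set against that in the GFP-negative cells of the same experiments to ask which changes differed between the fractions. In GFP-negative cells 96 probe sets (0.434%) were called between the days. The difference of the day changes was called for 49 probe sets (0.222%), 7 with a more positive change in GFP-positive cells and 42 with a more negative one. The fractions share experiments, which the fit without a block ignores. With the experiment as a random block, 222 differences were called (55 more positive, 167 more negative), which hold all of the 49. With a fixed block 107 were called (18 more positive, 89 more negative), which hold 44 of the 49. The results below are from the fit without a block, whose 49 probe sets represented 34 genes, and for 33 of them the change was more negative in GFP-positive cells. The exception was Cpe, a prohormone-processing carboxypeptidase, with 11720, 19725 and 16216 in GFP-positive cells at day 17, against 1113, 1741 and 3664 at day 7. In GFP-negative cells it had 2270, 5327 and 2044 at day 17, against 4152, 4443 and 5047 at day 7, and the difference of the changes was 3.62 ± 0.62 (limma adjusted p = 0.0424). The days were separated in GFP-positive cells and overlapped in GFP-negative cells.

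Of the 34 genes, 24 fell in GFP-positive cells and 8 rose in GFP-negative cells. Egfl6, a secreted matrix protein, had 3274, 2488 and 5670 in GFP-positive cells at day 17, against 7010, 11441 and 5792 at day 7, and 58176, 26674 and 24879 in GFP-negative cells at day 17, against 5017, 6012 and 3681 at day 7. Its day 17 values lay below day 7 in the GFP-positive cells and above day 7 in the GFP-negative cells, and the difference was -3.91 ± 0.56 (limma adjusted p = 0.0326). The Wnt modulator Sfrp2 (difference -3.74), the matricellular Ccn3 (-3.63) and the complement protease C1s1 (-3.54) had the same opposite signs. Edil3 and Rhoj fell in GFP-positive cells and had values of -0.32 and -1.20, not called, in GFP-negative cells (differences -3.89 and -3.42). Igf2 had 52211, 41848 and 56236 in GFP-negative cells at day 17, against 46810, 60540 and 56236 at day 7, which overlapped, and its difference was -2.22. Without a block no difference was called for bone matrix genes; Mgp (-2.03) had a limma adjusted p of 0.0589 without a block, 0.00461 with a random block and 0.0233 with a fixed block. Ibsp had a change of 6.92 in GFP-positive cells and 5.93 in GFP-negative cells (difference 0.99 ± 1.28), and Alpl of 4.21 in GFP-positive cells and 3.79 in GFP-negative cells (difference 0.43 ± 0.54). Phex had a change of 5.51 in GFP-positive cells and 2.05 in GFP-negative cells (3.46 ± 0.64, limma adjusted p = 0.0589 without a block, 0.0162 with a random and 0.120 with a fixed block), and Ptprz1 of 6.83 and 2.56 (4.27 ± 0.80, limma adjusted p = 0.0619 without a block, 0.00734 with a random and 0.0716 with a fixed block). Leaving out Exp106 in both fractions raised the count of called differences to 208, and leaving out GFP-positive Exp100, Exp105, Exp101, Exp103 or Exp99 lowered it to between 1 and 7.

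**Figure D5:**
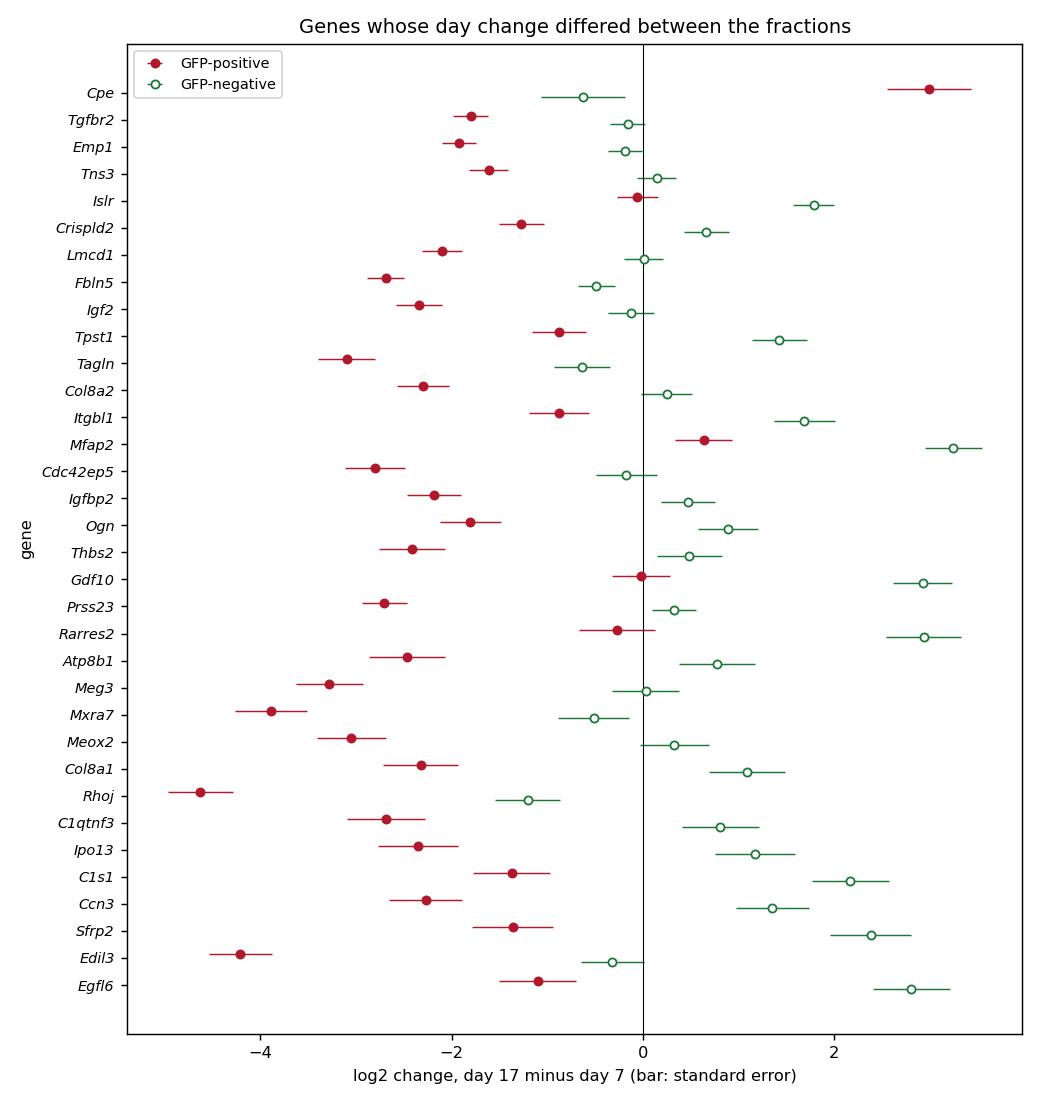
Log2 change between day 17 and day 7 (x axis, bars are standard errors) in GFP-positive (filled) and GFP-negative cells (open) for the 34 genes whose day change differed. The genes are those called in the fit without a block. Of them, Cpe is the only one further right in GFP-positive cells, and the other 33 lie further left.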

How the data were processed

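The deposited files hold 1 whole-number intensity per probe set and array, with a lowest value of 10; for how the authors made these intensities from the scans, the software and scaling are not given in the sources used. Per the labels, 10 ug of RNA was used and hybridisation ran for 16 h at 45 C. Array means differed by up to 65.2% within a type, so values were quantile normalised within each array type, and log2 of intensity plus 32 was taken; a printed intensity is that value turned back. Probe sets above the array median on at least 3 of the 12 sorted samples were tested with limma 3.58.1 in R 4.3.3, fitting 4 sorted groups and a variance trend over all 3 array types. The number of arrays limits the precision. Probe sets were named through GEO's platform annotation: 29131 of 36701 had 1 gene symbol, 724 several and 6846 none. A gene was represented by its probe set on array A before B before C, then by the brightest; of 80 other probe sets of 54 named genes, 67 had the same sign and none was called the opposite way.

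Genes were named by rule: the 20 largest rises and 20 largest falls without overlap, the 4 largest called changes of each list, 15 tested genes of a set chosen by name, and the 6 largest differences between the fractions in each direction, of which 1 existed upwards. Other list members and markers in the text were chosen after their values were seen. The genes and lists were chosen with earlier results of these data known. The fit without a block was also run on simulated data with independent noise in each sample. That simulation held no effect shared by the fractions of an experiment and no outlying sample. It therefore does not show how the fit performs on these data. Only the fits with a block took both fractions of an experiment as a pair, since the labels give them the same experiment number. The main fit ignored the pairing. Deviations of both fractions from their group means correlated over probe sets at 0.108 to 0.530 in all 6 experiments. Promoters were read from RefSeq's table, which matched 101 of the 142 named genes.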

Additional observations from a re-analysis of the deposited data

Results flagged for a closer look

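The difference between the day changes of GFP-positive and GFP-negative cells was tested with limma without a block, at an adjusted p under 0.05. The test singled out 49 probe sets, and among the named genes it singled out Cpe with a difference of 3.62 on the log2 scale. Among matrix and secreted proteins the differences were -3.91 for Egfl6, -3.89 for Edil3, -3.74 for Sfrp2, -3.63 for Ccn3, -3.54 for C1s1, -3.41 for Col8a1, -2.90 for Thbs2, -2.69 for Ogn, -2.55 for Col8a2 and -2.20 for Fbln5. Of growth factor genes, Igfbp2 had -2.66 and Igf2 -2.22. The remaining named genes were Ipo13 (-3.52), Rhoj (-3.42), the homeobox gene Meox2 (-3.38), Mxra7 (-3.37), the imprinted Meg3 (-3.31) and the actin-binding Tagln (-2.46). Groups of 3 samples are too small for a test of single outlying samples.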

How the results depend on the processing

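The day comparison itself cannot be paired, since each experiment lies within 1 day; with experiment as a random replicate block (correlation 0.394) 1090 probe sets were called in GFP-positive cells and 222 for the difference between fractions. A fixed replicate block over both fractions, added after seeing the data, called 107 differences. The called differences numbered 19 with no filter, 32 on the deposited scale, 32 without a variance trend and 208 with Exp106 out of both fractions. In GFP-positive cells, 433 probe sets were called (173 higher, 260 lower) in a fit of the 6 samples alone, and 2347 (950 higher, 1397 lower) with Exp106 out of both fractions. A fit of the GFP-positive samples alone without Exp106, added after seeing the data, called 1497, 584 higher and 913 lower. Leaving out 1 GFP-positive sample gave 457 to 1361 called, 177 to 516 higher, 280 to 845 lower and 1 to 126 differences. Without Exp106 in both fractions Mki67 changed sign, to 1.13, and was called; Top2a changed sign too, to 0.71, and was called in neither fit. Of the 130 called named genes, 78 were called under every one of the 19 alternatives. A lower and a higher pseudocount lost none of their calls, the deposited scale 4, and the 6 samples alone 38. The causes of these shifts were not tested, and some of the fits also had fewer samples.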

Other observations

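Several gene families outside the lists were looked at after their values had been seen, and are given as values only. Of 5 tested caveolin and cavin genes, which shape small pits of the cell surface, 3 fell and none rose. Cav1 had 564, 1137 and 1182 in day 17 samples, against 6461, 6711 and 6589 in day 7 samples (log2 change -2.81), Cavin2 fell by 2.72 and Cav2 by 2.05. Of 9 tested genes of the WASH complex and retromer, which sort cargo from endosomes, 5 fell and none rose, led by Washc5 (by 2.41) and Washc2 (by 1.64).

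Of the 4 Mef2 transcription factors, 3 rose: besides Mef2c, Mef2d and Mef2a (1.29) passed the test. Mef2a had 6620, 6816 and 6864 at day 17, against 2411, 2961 and 2890 at day 7. The class 3 semaphorins, secreted guidance proteins, went both ways. Sema3b had 3225, 2822 and 839 at day 17, against 66.8, 114 and 97.5 at day 7 (log2 change 4.03), Sema3d rose by 2.52, and Sema3c fell. Of 8 potassium channels of the Kcnk family, Kcnk1 and Kcnk6 (3.25) rose and Kcnk2 fell.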
